A study of Mus musculus with 9 samples.

Results

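Transcripts of 35 marker genes of monocytes and macrophages were followed in mouse brown adipose tissue (BAT). The genes were taken from a list of symbols that was chosen with earlier results of these data known. All 35 were found among the 16679, 16312 and 16560 genes of the 3 deposited comparison tables. The RNA came from whole BAT, the heat-producing fat depot, of adult mice aged 12 to 23 weeks on the C57Bl/6J background, and 9 libraries were sequenced, 3 in each of 3 groups. Wild-type mice were kept at room temperature, 23 °C (WT RT), or were placed at 4 °C for 8 h (WT Cold), and mice with a whole-body deletion of Gcn2 (Gcn2-/-, GCN2 KO Cold) were placed at 4 °C for the same 8 h. All mice were housed singly from the acclimation period on, and both sexes were used in the study, but the labels give no sex for a library. Room temperature GCN2 KO libraries were not analysed here, and whether the response to cold differs by genotype could not be tested as an interaction.

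Macrophages are phagocytes that live in every tissue or arise there from blood monocytes, and they depend on the transcription factor PU.1 and on signals through the CSF1 receptor. In adipose tissue they lie around vessels and nerves and between fat cells, where they take up dying cells, lipid and debris. The markers followed here cover their lineage and identity genes, Fc receptors, Trem2 and signalling adaptors, and pattern recognition receptors. They also cover complement C1q, the phagocyte oxidase, and the scavenger receptors of resident macrophages.

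The libraries held between 27058799 and 30768064 reads on listed genes, and every deposited value could be turned back into whole reads. Levels across the 9 libraries are given as CPM, the reads of a gene scaled to a common library total, and fold changes come from each table's own normalised counts on the log2(normalised count + 1) scale, on which changes of low genes are understated. Within each group, letters from A to C follow the library codes. WT RT libraries carry a code prefix that neither cold group has, and any difference in handling that goes with it cannot be told apart from the cold. Eif2ak4, which encodes GCN2, was not lower in libraries that carry the label GCN2 KO Cold, with 356 ± 13.3 normalised counts against 209 ± 33.2 in WT Cold (SD, n = 3 each), a log2 fold change of 0.78 (SE 0.15, adjusted p = 0.0932 with limma, 0.00271 with DESeq2). In this group 1 of the 3 samples also has WT in its title, and it was placed by its genotype field. Gene totals do not show which exons were read, and the group is therefore called the libraries labelled GCN2 KO Cold. In RNA from whole tissue, fewer macrophages and less of a transcript per macrophage cannot be told apart.

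The first comparison asks how 8 h of cold changed these transcripts in WT mice. Most of them were less abundant in the cold. Of the 35 genes, 22 fell and 1 rose in WT Cold relative to WT RT (limma, adjusted p under 0.05 over all genes of the table), where 14.1% of all genes fell and 13.6% rose. A fall of more than 2-fold was called for 14 of the 35 genes and for 5.15% of all genes. The median log2 fold change of the 35 genes was -0.95, and that of all genes was 0.003. Every WT Cold library was below every WT RT library for 25 of the 35 genes, against 22.8% of all genes, and above for 1, Mertk, against 22.8% of all genes. On the recovered reads, DESeq2 called 24 of the 35 as lower, where 14.7% of all genes fell, and with edgeR's quasi-likelihood test 22 fell, where 14.1% of all genes fell. The summed level of the 35 genes was 1050, 1306 and 779 CPM in WT RT libraries A, B and C, and 553.0, 407 and 636 CPM in WT Cold, so the groups did not overlap.

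**Figure D1:**
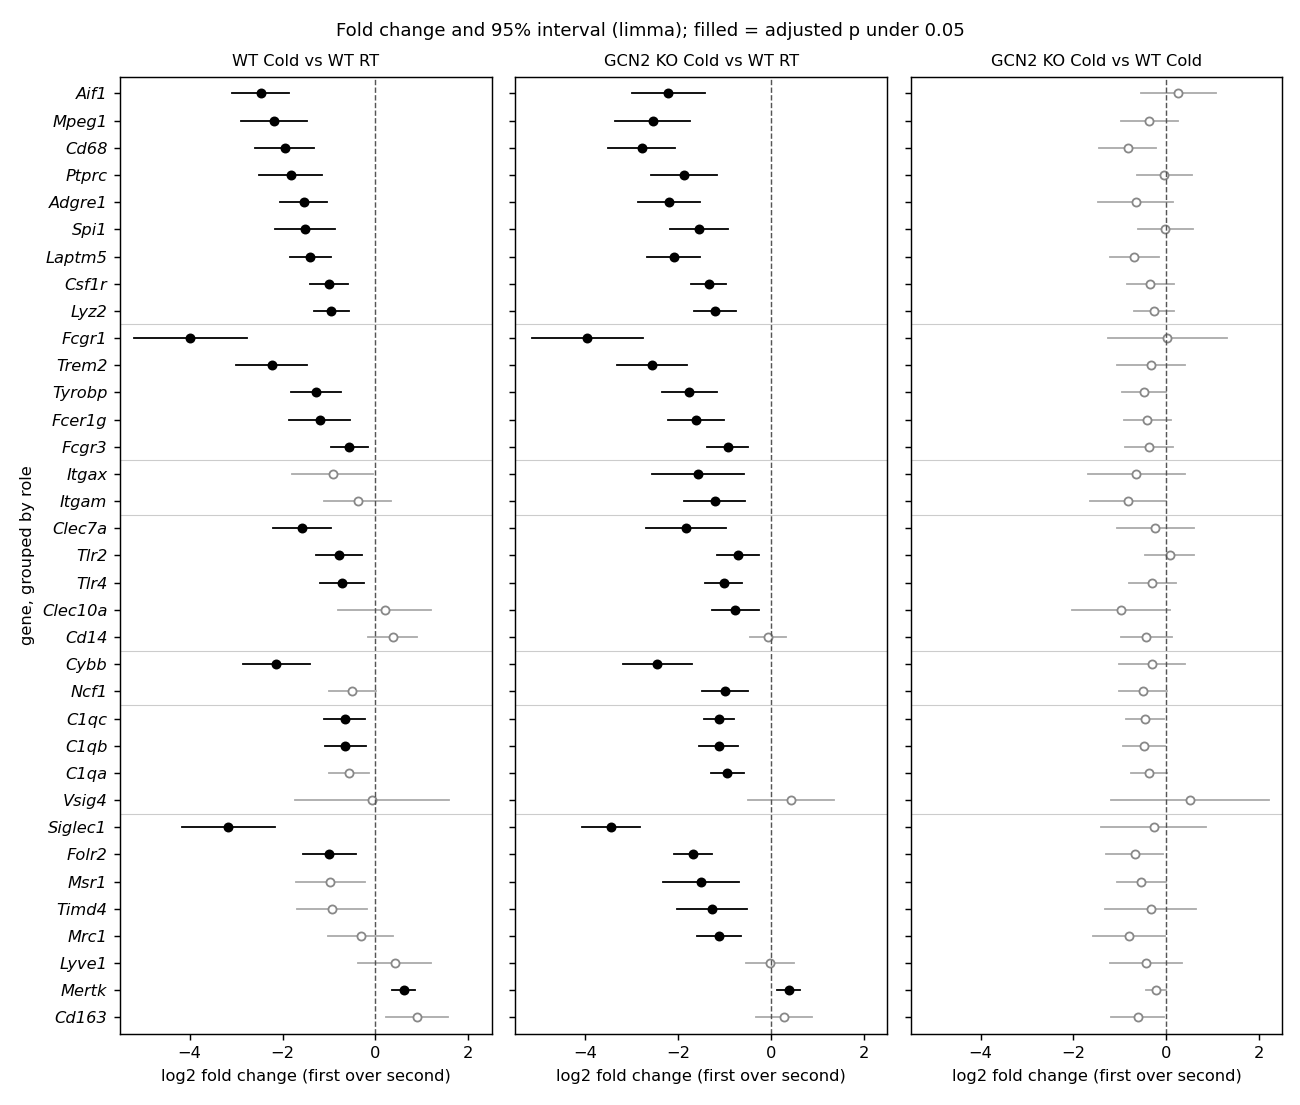
Log2 fold change (x axis, first group over second, limma on normalised counts) of each of the 35 genes (y axis, grouped by role) in the 3 comparisons, with 95% intervals as lines. Filled points have an adjusted p under 0.05, 23 in WT Cold vs WT RT, 31 in GCN2 KO Cold vs WT RT and 0 in GCN2 KO Cold vs WT Cold, and Fcgr1 and Siglec1 lie farthest to the left in both comparisons with WT RT.

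The call was not equally firm for all genes. Of the 23 genes called, 16 kept the call when each library was left out in turn, and 7 lost it without at least 1 library. Fcgr3 lost it without any library other than WT Cold C (highest adjusted p = 0.147 from limma), and Tlr4 without any other than WT Cold A (0.111). Folr2, C1qb, C1qc and Tlr2 lost it without WT Cold A, WT Cold B, WT RT A or WT RT B, with highest adjusted p-values from limma of 0.0801, 0.126, 0.111 and 0.0962, and Fcer1g without WT Cold B (0.0612). The number of calls ranged from 17 without WT RT B, where 18.4% of all genes were called, to 27 without WT Cold C, where 34% were. With all libraries 27.7% were. WT RT B had the highest level of its group for 24 of the 35 genes, and WT Cold B had the lowest of its group for 25. Without both of these libraries, an alternative chosen after the data were seen, 11 genes stayed called (6.8% of all genes were called) and the median was -0.70, and Csf1r, Mertk, Lyz2, Clec7a and Spi1 were among the 12 that were then no longer called. The Bonferroni adjustment left 0 of the 35 genes and 0.773% of all genes.

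The 9 genes grouped here as lineage and identity genes fell together. All 9 passed the test, 7 of them by more than 2-fold, with a median of -1.54. The grouping was made here, and some macrophage markers placed in other groups, such as Itgam, Mrc1 and Mertk, did not fall by this test. Spi1 encodes PU.1, the factor that sets the myeloid programme. Its levels were 12.02, 22.9 and 12.05 CPM in WT RT and 4.42, 4.10 and 6.39 CPM in WT Cold (log2 fold change -1.52, SE 0.28, adjusted p = 0.00679 from limma). Csf1r, the receptor that macrophages need for survival, was at 44.8, 37.8 and 33.8 CPM in WT RT and at 18.8, 14.2 and 22.5 CPM in WT Cold. Every cold library was below every room temperature library, and the log2 fold change was -0.997 (SE 0.18, adjusted p = 0.00623 from limma).

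Adgre1, which encodes the macrophage surface marker F4/80, was at 31.3, 32.6 and 23.3 CPM in WT RT and at 9.71, 6.81 and 12.1 CPM in WT Cold. It was 2.92-fold lower in the cold (log2 fold change -1.54, SE 0.22, adjusted p = 0.00238 from limma), and the groups were far apart. Cd68, a lysosomal membrane glycoprotein of phagocytes, was at 36.6, 68.0 and 29.8 CPM in WT RT and at 10.8, 8.27 and 11.9 CPM in WT Cold. Library B of WT RT stood well above the other two, yet the lowest WT RT library was still above the highest WT Cold library. The log2 fold change of Cd68 was -1.96 (SE 0.28, adjusted p = 0.00246 from limma).

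Aif1, which encodes the calcium-binding protein IBA1, had the largest fall of this group. It was at 8.54, 13.03 and 6.40 CPM in WT RT and at 1.66, 1.25 and 1.60 CPM in WT Cold (log2 fold change -2.47, SE 0.26, adjusted p = 0.000801 from limma). Mpeg1, a pore-forming protein of the macrophage phagosome, had a log2 fold change of -2.18, with 63.8, 131 and 50.2 CPM in WT RT and 13.2, 16.0 and 17.96 CPM in WT Cold. Ptprc, the common leukocyte antigen CD45, fell by 1.83 on the log2 scale, and Laptm5, a lysosomal protein of blood cells, fell by 1.40. Lyz2, lysozyme, which is also made by other myeloid cells, fell less, by 0.95, from 215 ± 49.1 to 104 ± 14.4 CPM (SD, n = 3 each). Lyz2 has the close paralog Lyz1, between which reads can be split.

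**Figure D2:**
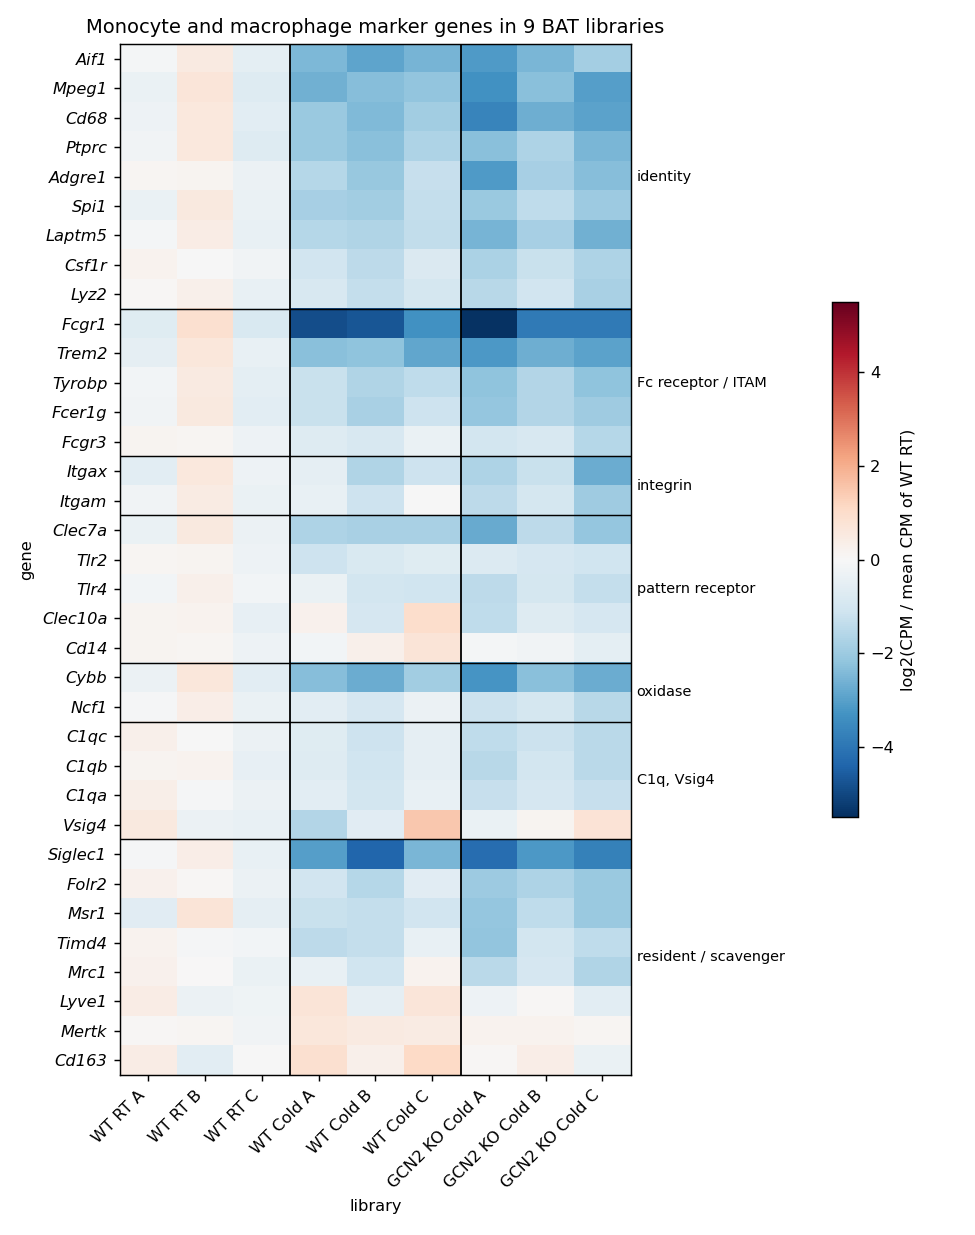
Level of each of the 35 genes (rows, grouped by role) in each of the 9 libraries (columns), as log2 of CPM over the mean CPM of WT RT, blue for lower and red for higher. Fcgr1 and Siglec1 are the darkest blue rows in both cold groups, and Mertk and Cd163 are red in 6 and 5 of the 6 cold libraries.

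Fc receptors, the signalling adaptors grouped with them and the receptor Trem2 also fell. All 5 genes of this group passed the test, 4 of them by more than 2-fold. Fcgr1, the high-affinity receptor for immunoglobulin G (CD64), had the largest fall of all 35 genes. It was at 27.5, 79.9 and 24.6 CPM in WT RT and at 1.52, 1.67 and 4.34 CPM in WT Cold, 15.8-fold lower (log2 fold change -3.98, SE 0.53, adjusted p = 0.00187 from limma). Without WT RT B and WT Cold B its log2 fold change was -3.26 (adjusted p = 0.0287 from limma). Trem2, a lipid-sensing receptor of macrophages, was at 3.22, 6.83 and 3.41 CPM in WT RT and at 0.898, 0.973 and 0.625 CPM in WT Cold (log2 fold change -2.24, SE 0.33, adjusted p = 0.00285 from limma). Trem2 was also among the least abundant of the 35 genes, with 14 reads in its lowest library, which was labelled GCN2 KO Cold.

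The 2 adaptors with an immunoreceptor tyrosine-based activation motif (ITAM) fell by similar amounts. Tyrobp (DAP12), the partner of Trem2, went from 24.1 ± 9.05 to 9.003 ± 1.30 CPM (SD, n = 3 each), a log2 fold change of -1.28 (SE 0.23, adjusted p = 0.00656 from limma). Fcer1g, the common Fc receptor gamma chain, went from 21.2 ± 8.90 to 8.34 ± 1.86 CPM, a log2 fold change of -1.20 (SE 0.28, adjusted p = 0.0176 from limma). Fcgr3, a lower-affinity activating Fc receptor with the close relatives Fcgr2b and Fcgr4, fell by 0.56 on the log2 scale (SE 0.17, adjusted p = 0.0479 from limma), and its call was lost with edgeR (adjusted p = 0.0543).

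The pattern recognition receptors were mixed. Of the 5 genes, 3 fell and 2 did not pass. Clec7a, which encodes the beta-glucan receptor Dectin-1, was at 3.22, 6.01 and 3.38 CPM in WT RT and at 1.31, 1.22 and 1.22 CPM in WT Cold (log2 fold change -1.58, SE 0.27, adjusted p = 0.00482 from limma). Tlr2, a receptor for bacterial lipopeptides, fell by 0.78 on the log2 scale (SE 0.22, adjusted p = 0.0310 from limma), and Tlr4, the receptor for lipopolysaccharide, by 0.72 (SE 0.20, adjusted p = 0.0343 from limma). Cd14, the co-receptor of Tlr4, did not pass. It was at 9.39, 8.97 and 6.83 CPM in WT RT and at 7.60, 10.1 and 13.6 CPM in WT Cold, and the groups overlapped (log2 fold change 0.37, 95% interval -0.16 to 0.90). Clec10a, a galactose-type lectin, ranged from 10.7 CPM in WT Cold B to 40.2 CPM in WT Cold C, so that its interval of -0.80 to 1.21 leaves the direction unresolved.

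The integrin alpha chains that carry the names CD11b and CD11c did not pass. Itgam had a log2 fold change of -0.38 (95% interval -1.11 to 0.34) and Itgax of -0.92 (95% interval -1.79 to -0.05, adjusted p = 0.107 from limma), with 0.869 to 1.90 CPM of Itgax in the WT Cold libraries. Cybb, the catalytic subunit of the phagocyte NADPH oxidase, fell from 21.7, 40.9 and 17.99 CPM to 5.32, 4.10 and 7.16 CPM, a log2 fold change of -2.13 (SE 0.31, adjusted p = 0.00274 from limma). Its cytosolic partner Ncf1 had a log2 fold change of -0.49 (SE 0.22, adjusted p = 0.130 from limma) that did not pass. Exons of Itgam, Ncf1, Csf1r and Folr2 overlap those of another gene in the annotation used here, 1 on the same strand and 3 on the opposite one, and with a kit that does not mark strand, reads in the overlap cannot be told apart.

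The 3 chains of C1q, the complement recognition protein that tissue macrophages make, were close to each other. C1qa, C1qb and C1qc had log2 fold changes of -0.57, -0.65 and -0.66 in WT Cold. C1qb and C1qc passed (adjusted p = 0.0408 and 0.0358 from limma), and C1qa did not (adjusted p = 0.0539 from limma, 0.0158 from DESeq2). All WT Cold libraries were below all WT RT libraries for each chain, with 32.7 to 48.4 CPM of C1qa in WT Cold and 52.1 to 80.5 CPM in WT RT. Vsig4, the complement receptor CRIg, was the lowest of the 35 genes per length in WT RT, with 17 to 33 reads there and 7, 14 and 59 in WT Cold, and its log2 fold change of -0.07 has a 95% interval of -1.73 to 1.59.

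Receptors of resident macrophages went in different directions. Siglec1, the sialic acid receptor sialoadhesin (CD169), was at 24.1, 32.1 and 18.9 CPM in WT RT and at 3.07, 1.22 and 4.38 CPM in WT Cold. It was 8.97-fold lower in the cold (log2 fold change -3.17, SE 0.43, adjusted p = 0.00216 from limma), and -2.46 without WT RT B and WT Cold B (adjusted p = 0.0154 from limma). Folr2, folate receptor beta, fell by 0.99 on the log2 scale (SE 0.25, adjusted p = 0.0229 from limma). The scavenger receptor Msr1 and the phosphatidylserine receptor Timd4 had log2 fold changes of -0.97 and -0.93 with adjusted p = 0.0583 and 0.0649 from limma, and did not pass although their groups did not overlap. Msr1 passed with DESeq2 and edgeR (adjusted p = 0.00449 and 0.0478). Mrc1, the mannose receptor CD206, was at 52.4, 45.1 and 34.2 CPM in WT RT and at 33.4, 20.9 and 50.8 CPM in WT Cold, and the groups overlapped (log2 fold change -0.31, 95% interval -1.02 to 0.39). Without WT Cold C it passed, with a log2 fold change of -0.65.

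Mertk, the receptor kinase through which macrophages take up apoptotic cells, was the only one of the 35 genes that rose by limma. It was at 13.4, 13.9 and 11.0 CPM in WT RT and at 19.6, 17.8 and 17.7 CPM in WT Cold (log2 fold change 0.61, SE 0.11, adjusted p = 0.00561 from limma). Mertk kept its call with each library left out. Cd163, the haemoglobin-haptoglobin scavenger receptor, was at 31.9, 16.0 and 23.6 CPM in WT RT and at 43.3, 29.1 and 51.7 CPM in WT Cold. Its groups overlapped, and its log2 fold change of 0.89 (SE 0.29) missed the threshold with limma (adjusted p = 0.0537) and edgeR (adjusted p = 0.0551) and passed with DESeq2 (adjusted p = 0.00573). With limma it also passed without WT Cold B or without WT RT A, and its adjusted p ranged from 0.0394 to 0.136 over the libraries left out. Lyve1, the hyaluronan receptor shared by perivascular macrophages and lymphatic vessels, had a log2 fold change of 0.41 (95% interval -0.37 to 1.19), with 1 low library in WT Cold, B at 16.5 CPM, beside 38.0 and 37.0 CPM, and it passed without that library (adjusted p = 0.0470 from limma).

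**Figure D3:**
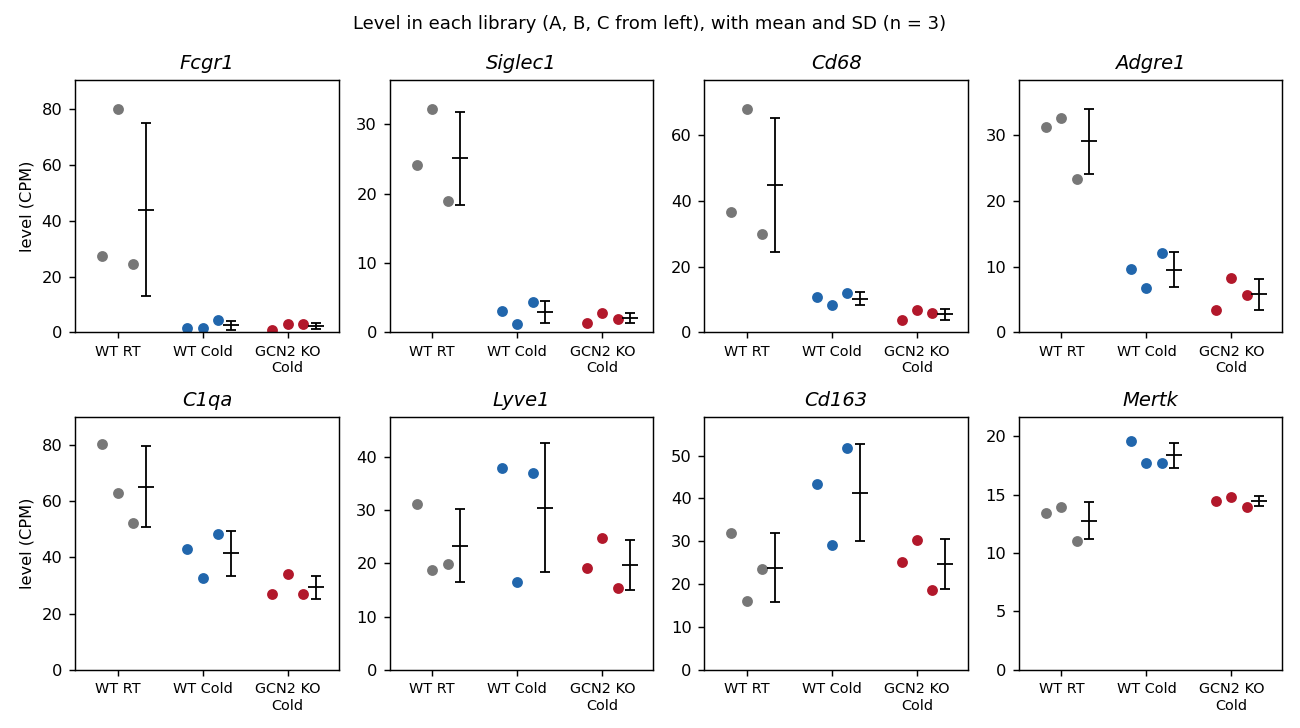
Level (CPM, y axis) of 8 of the genes in each library, with A, B and C of a group from left to right and the mean ± SD (n = 3) as a bar beside them. Fcgr1, Siglec1, Cd68 and Adgre1 are lower in all cold libraries than in all WT RT libraries, Mertk is higher, and Lyve1 and Cd163 overlap between WT RT and the cold groups.

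The balance between the markers of 3 chosen pairs differed between the groups. There were 0.872, 0.235 and 0.792 reads of Cd163 per read of Cd68 in the WT RT libraries and 4.02, 3.52 and 4.35 in WT Cold. Reads of Lyve1 per read of Siglec1 numbered 1.29, 0.583 and 1.06 in WT RT and 12.4, 13.5 and 8.45 in WT Cold. For Mrc1 per read of Adgre1 the values were 1.68, 1.38 and 1.47 in WT RT and 3.44, 3.06 and 4.20 in WT Cold. In all 3 pairs, which were chosen after the values were seen and were not tested, no WT Cold library reached down to a WT RT library. In the libraries labelled GCN2 KO Cold the ratios were 6.90, 4.36 and 3.21 for Cd163 to Cd68, 13.9, 8.90 and 8.18 for Lyve1 to Siglec1, and 4.67, 2.83 and 2.46 for Mrc1 to Adgre1.

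**Figure D4:**
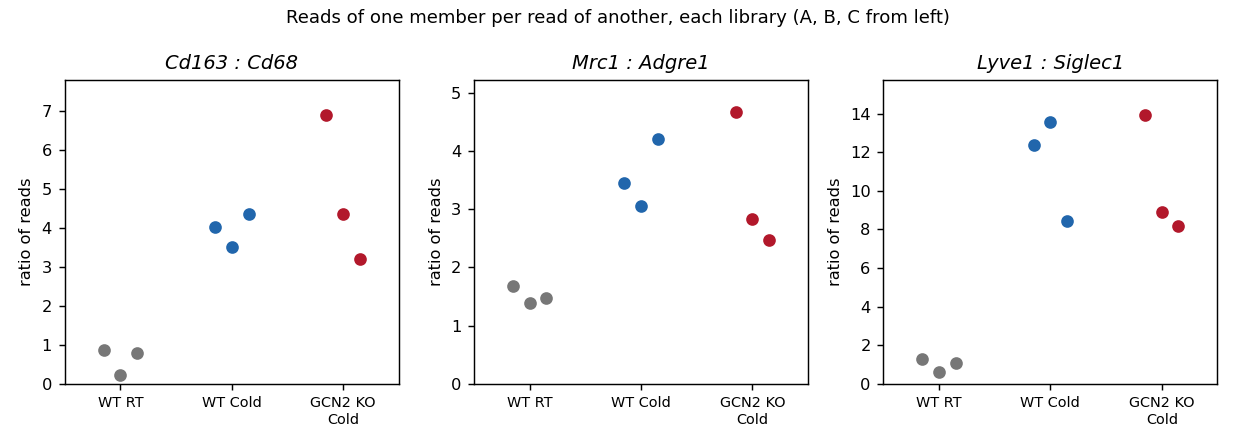
Reads of 1 gene per read of another (y axis, linear) in each library of the 3 groups, A, B and C from left to right. In each of the 3 pairs every cold library lies above every WT RT library, with Cd163 to Cd68 below 1 in WT RT and above 3 in the cold.

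Promoter windows are shown for the genes with the largest falls that had one, Fcgr1, Aif1, Trem2, Mpeg1 and Cybb, and for Cd163 and Mertk, which had the largest log2 fold changes above 0. Each runs over the 250 bases before the annotated start, 5′ to 3′ on the gene's strand, from RefSeq on GRCm38.p6. The genes were chosen after their values were seen. Capitals mark matches, on either strand, to the PU.1 box GAGGAA or to the core of the interferon-stimulated response element GAAANNGAA.
Fcgr1, chr3:96293970-96294219, minus strand: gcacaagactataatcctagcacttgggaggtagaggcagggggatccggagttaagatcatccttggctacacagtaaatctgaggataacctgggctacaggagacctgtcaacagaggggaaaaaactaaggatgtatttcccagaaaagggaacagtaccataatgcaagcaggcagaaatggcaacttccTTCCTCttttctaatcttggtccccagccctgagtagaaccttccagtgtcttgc
Aif1, chr17:35176053-35176302, minus strand: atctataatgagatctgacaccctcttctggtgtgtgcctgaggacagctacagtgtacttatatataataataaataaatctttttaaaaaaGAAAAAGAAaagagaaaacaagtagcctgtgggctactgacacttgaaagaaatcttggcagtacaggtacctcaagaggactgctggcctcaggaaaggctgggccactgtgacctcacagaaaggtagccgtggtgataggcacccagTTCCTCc
Trem2, chr17:48346151-48346400, plus strand: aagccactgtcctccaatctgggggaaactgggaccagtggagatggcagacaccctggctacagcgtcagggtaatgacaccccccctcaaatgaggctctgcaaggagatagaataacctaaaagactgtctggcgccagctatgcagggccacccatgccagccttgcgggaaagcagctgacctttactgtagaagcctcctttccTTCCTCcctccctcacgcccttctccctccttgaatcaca
Mpeg1, chr19:12460520-12460769, plus strand: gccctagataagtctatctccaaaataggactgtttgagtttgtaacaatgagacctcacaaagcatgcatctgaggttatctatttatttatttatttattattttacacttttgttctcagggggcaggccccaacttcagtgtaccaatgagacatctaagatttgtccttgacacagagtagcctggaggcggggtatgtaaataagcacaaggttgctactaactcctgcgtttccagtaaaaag
Cybb, chrX:9469325-9469574, minus strand: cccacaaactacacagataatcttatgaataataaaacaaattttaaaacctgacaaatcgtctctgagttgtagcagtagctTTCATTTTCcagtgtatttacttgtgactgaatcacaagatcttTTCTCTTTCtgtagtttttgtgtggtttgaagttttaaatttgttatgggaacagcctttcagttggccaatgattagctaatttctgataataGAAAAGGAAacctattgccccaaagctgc
Cd163, chr6:124304401-124304650, plus strand: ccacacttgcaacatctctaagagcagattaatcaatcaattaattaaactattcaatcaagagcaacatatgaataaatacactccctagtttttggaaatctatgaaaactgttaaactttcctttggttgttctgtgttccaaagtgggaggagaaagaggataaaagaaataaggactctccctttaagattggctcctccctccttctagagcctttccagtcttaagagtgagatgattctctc
Mertk, chr2:128698665-128698914, plus strand: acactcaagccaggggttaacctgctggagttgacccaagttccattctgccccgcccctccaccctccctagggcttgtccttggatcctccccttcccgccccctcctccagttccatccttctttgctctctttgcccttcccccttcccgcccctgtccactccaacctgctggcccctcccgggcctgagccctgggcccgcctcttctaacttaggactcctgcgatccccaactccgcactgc

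The Fcgr1 window held a PU.1 box 55 to 50 bases before the start, and the Aif1 window held a PU.1 box and an interferon-stimulated response element core. Trem2 had a PU.1 box 40 to 35 bases before the start, Cybb had 3 interferon-stimulated response element cores, and the windows of Mpeg1, Cd163 and Mertk held neither motif. RefSeq windows were found for 24 of the 35 genes, 28 windows in all because some genes have several starts. The PU.1 box was in 15 of these 28 windows (53.6%), belonging to 13 genes, and in 23.25% of all 32851 windows of the same length. The interferon-stimulated response element core was in 5 of 28 (17.9%) and in 7.13% of all. A match describes the letters of a window and is not evidence of binding, and matches of the motifs can overlap.

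Next, the libraries labelled GCN2 KO Cold were set against WT RT, a comparison in which genotype and temperature both differ and which shares its WT RT libraries with the first. Here 30 of the 35 genes fell and 1 rose (limma, adjusted p under 0.05), where 17.8% of all genes fell and 16.4% rose, and 25 fell by more than 2-fold, where 7.58% of all genes did. The median log2 fold change was -1.34, against 0.009 for all genes. Every library labelled GCN2 KO Cold was below every WT RT library for 30 of the 35 genes (25.5% of all genes) and above for 1 (23.7% of all genes). DESeq2 and edgeR also called 30 falls, where 17.8% and 18.7% of all genes fell. The summed level of the 35 genes was 323, 447 and 307 CPM. Of the 31 genes called, 26 kept the call with each library left out in turn, and Clec10a, Itgax, Mertk, Timd4 and Tlr2 lost it without at least 1 library, with highest adjusted p-values from limma of 0.0931, 0.0885, 0.0939, 0.0675 and 0.0878. Clec10a, Timd4 and Tlr2 lost it without WT RT A, Clec10a, Itgax and Tlr2 without WT RT B or GCN2 KO Cold C, Itgax without WT RT C, Clec10a without GCN2 KO Cold A, and Tlr2 without GCN2 KO Cold B.

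Fcgr1 was at 1.01, 2.99 and 2.99 CPM in the libraries labelled GCN2 KO Cold, 15.5-fold below WT RT (log2 fold change -3.95, SE 0.52, adjusted p = 0.00109 from limma). Siglec1 was at 1.37, 2.78 and 1.88 CPM, a log2 fold change of -3.44 (SE 0.27, adjusted p = 0.000159 from limma), and was the 1 gene left by the Bonferroni adjustment, which left 1.22% of all genes. Cd68 was at 3.65, 6.95 and 5.77 CPM and fell by 2.78 on the log2 scale (SE 0.32, adjusted p = 0.000617 from limma). Some genes that had not passed in WT Cold by limma did so here, but none of the 35 genes passed in the direct comparison of the cold groups. Mrc1 was at 15.9, 23.3 and 14.0 CPM (log2 fold change -1.12, SE 0.20, adjusted p = 0.00400 from limma), and C1qa was at 26.9, 34.0 and 26.9 CPM (log2 fold change -0.94, SE 0.15, adjusted p = 0.00267 from limma). Itgam, Itgax, Msr1, Timd4, Ncf1 and Clec10a had log2 fold changes from -1.56 to -0.77.

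Mertk was again the gene that rose, at 14.5, 14.8 and 14.0 CPM (log2 fold change 0.38, SE 0.11, adjusted p = 0.0282 from limma), but the call was lost when libraries were scaled to their totals, where the log2 fold change was 0.18, and without any of GCN2 KO Cold A, GCN2 KO Cold B, WT RT A or WT RT C, with adjusted p-values between 0.0457 and 0.0939 over the libraries left out. The genes that did not pass were Cd163 (log2 fold change 0.28, 95% interval -0.33 to 0.88), Cd14 (-0.06, 95% interval -0.44 to 0.33), Lyve1 (-0.02, 95% interval -0.54 to 0.49) and Vsig4 (0.44, 95% interval -0.48 to 1.37). Scaling to library totals moved the median of all genes by -0.20 in this comparison and by -0.12 between the cold groups.

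The direct comparison of the cold groups asks whether these transcripts differed in the cold between libraries labelled GCN2 KO and WT. It shares its libraries with the comparisons above. Of the 35 genes, 31 had a log2 fold change below 0 and 4 (Aif1, Fcgr1, Tlr2 and Vsig4) above 0. The median was -0.37, against -0.003 for all genes. None passed the test with limma, where 0.227% of all genes fell and 0.178% rose, nor with DESeq2, where 1.84% fell, or edgeR, where 0.159% fell. At an unadjusted p under 0.05 from limma, 9 of the 35 genes were lower and 0 higher, and 7.49% of all genes were lower. All 3 libraries labelled GCN2 KO Cold were below all 3 WT Cold libraries for Cd68, Laptm5 and Mertk, 3 of the 35 genes, against 10.7% of all genes.

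Cd68 had the smallest p of the 35 genes, with 160.4 ± 49.5 normalised counts in libraries labelled GCN2 KO Cold and 279 ± 52.6 in WT Cold (SD, n = 3 each). Its log2 fold change was -0.83 (95% interval -1.44 to -0.22, adjusted p = 0.203 from limma and 0.0744 from DESeq2). Laptm5 had a log2 fold change of -0.69 (95% interval -1.22 to -0.16, adjusted p = 0.217 from limma). Mertk, at 424 ± 10.6 against 497 ± 19.2 normalised counts, differed by -0.23 (95% interval -0.45 to -0.01, adjusted p = 0.303 from limma). The other 6 genes with an unadjusted p under 0.05 were Itgam, Mrc1, Cd163, Folr2, C1qb and C1qc, with log2 fold changes from -0.83 to -0.46. For the genes with the largest falls against WT RT, the intervals between the cold groups were wide and spanned 0, from -1.27 to 1.31 for Fcgr1 and from -1.41 to 0.86 for Siglec1. The interval of Spi1 was -0.61 to 0.57 and that of Csf1r was -0.84 to 0.16.

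Libraries of a group differed from each other in most of the 35 genes at once. Within the libraries labelled GCN2 KO Cold, B was highest for 30 of the 35 genes, against 32.6% of other genes, and lowest for 0. Within WT Cold, C was highest for 26 (32.9% of other genes) and B lowest for 25 (28.8% of other genes). Within WT RT, B was highest for 24 (41.2% of other genes) and C lowest for 27 (47.1% of other genes). The exceptions in WT RT included Cd163, Lyve1, Mrc1, Csf1r, Folr2 and the chains C1qa and C1qc, which were highest in A.

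Per kilobase of exon, Lyz2 was the most abundant of the 35 genes in every group, with means of 163, 78.9 and 61.4 RPKM (CPM divided by exon length in kilobases) in WT RT, WT Cold and GCN2 KO Cold in turn, followed in WT RT by C1qa, C1qb, Tyrobp, Cd68 and C1qc. Exon lengths came from GENCODE M21. Fcgr1 was in place 9 of 35 in WT RT, at 17.0 ± 12.02 RPKM, and in place 25 in WT Cold, at 0.97 ± 0.61 RPKM (SD, n = 3 each). Cd163 was in place 22 in WT RT and in place 10 in WT Cold, at 4.37 ± 1.46 and 7.58 ± 2.09 RPKM. Many neighbours in this order differed by less than their SDs, such as Mrc1 at 6.89 ± 1.44 and Csf1r at 6.72 ± 0.96 RPKM in WT RT.

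Other genes of the same pathways were counted from lists that include the 35 genes where they belong, and each count is to be read against the shares of all genes, 14.1% lower and 13.6% higher in WT Cold and 17.8% lower and 16.4% higher in GCN2 KO Cold, each relative to WT RT. Of the 6 subunits of the phagocyte oxidase, 5 fell in WT Cold and all 6 in GCN2 KO Cold, each relative to WT RT, with medians of -0.93 and -1.19. Ncf4 and Rac2 had log2 fold changes of -1.32 and -0.995 in WT Cold. Of 14 Fc receptor and ITAM signalling genes, 10 and 13 fell and 0 rose, and among them the activating receptor Fcgr4 fell in WT Cold (log2 fold change -2.04, adjusted p = 0.0106 from limma). Of 5 ligands and receptors of the CSF family, 3 and 4 fell, and Csf1 itself, the growth factor that signals through Csf1r, fell by 0.59 on the log2 scale in WT Cold (adjusted p = 0.0224 from limma). Il34, the second ligand, had a log2 fold change of -0.19 that did not pass.

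Of 17 genes for Toll-like receptors and their adaptors, 8 fell and 2 rose in WT Cold and 9 fell and 2 rose in the libraries labelled GCN2 KO Cold. Tlr9, the receptor for unmethylated DNA, fell most (log2 fold change -3.65 in WT Cold), and Ly96, the co-receptor of Tlr4, rose (0.69), as did the adaptor Ticam1 (0.42). Of 16 complement genes, 6 fell and 1 rose in WT Cold, and 9 fell and 1 rose in GCN2 KO Cold, each relative to WT RT. In WT Cold the C3a receptor gene C3ar1 fell most (-1.69), and the gene that rose was Cfd, adipsin, which fat cells secrete (0.90). Of 12 genes for uptake of apoptotic cells, 2 fell and 2 rose in WT Cold, which is near the share of all genes. These were Stab1 (-0.75) and Itgb5 (-0.49) against Mertk (0.61) and the fatty acid receptor Cd36 (0.62). With GCN2 KO Cold set against WT RT, 5 of the 12 genes fell and 2 rose. Against WT Cold, none of these lists had a gene that passed in the libraries labelled GCN2 KO Cold.

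Lists of activation states were counted in the same way. Of 10 inflammatory activation genes with a value, 5 fell in WT Cold and 0 rose, and the largest falls were in the chemokines Cxcl10 (log2 fold change -2.95), Ccl4 (-2.76) and Ccl2 (-2.07). Of 10 alternative activation genes, 3 fell and 0 rose, namely Chil3 (-2.72), Cd209f (-1.92) and Il10 (-1.62), while DESeq2 called 2 lower and 1 higher and the list's median was -0.32. Of 12 genes of lipid-associated macrophages, 5 fell, among them Trem2, Fabp5 (-1.22) and Gpnmb (-1.19), and Lpl, lipoprotein lipase, which fat cells make in quantity, rose (1.55). With GCN2 KO Cold set against WT RT, 6 inflammatory, 6 alternative activation and 3 lipid-associated genes fell, and 2 lipid-associated genes rose.

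Markers of neighbouring blood cells were read in the same libraries. Of 14 monocyte genes, 6 fell in WT Cold and 0 rose, with a median of -1.07, and Ms4a4c (log2 fold change -4.88), Ly6c2 (-4.53), Ccr2 (-2.87) and Chil3 (-2.72) fell most. With GCN2 KO Cold set against WT RT, 8 fell and 1 rose, with a median of -1.12, and between the cold groups 0 of 13 passed by limma and 1 was called lower by DESeq2. The summed level of the monocyte list did not follow them, at 1099 to 1325 CPM in WT RT and 1175 to 1811 CPM in WT Cold, since most of its reads were of Hp, haptoglobin, which fat cells also make. Of 8 neutrophil genes with a value, 2 fell, Csf3r (-1.38) and Mmp9 (-1.02), while S100a8 and S100a9 did not pass (0.60 and 0.85). The 8 dendritic cell genes had 0 calls and summed to 20.7 to 22.0 CPM in WT RT and 18.3 to 21.1 CPM in WT Cold. Of 9 genes of T, B and NK cells, 1 fell, Nkg7 (-1.54), and the list summed to 13.7 CPM at most. With GCN2 KO Cold set against WT RT, 2 neutrophil, 1 dendritic cell and 0 lymphocyte genes fell, and 0 of these lists' genes rose. Camp, Ngp, Stfa2l1, Siglech, Ms4a2, Cd3d, Ncr1 and Klrb1c did not have a value for all 9 libraries and are not in the summed levels. With GCN2 KO Cold set against WT RT, 10 lymphocyte genes had a value. Of 8 mast cell genes, 1 fell and 1 rose in WT Cold, near the share of all genes, and 5 fell and 1 rose in the libraries labelled GCN2 KO Cold relative to WT RT. Between the cold groups all 8 had a log2 fold change below 0, with a median of -0.91, and 0 passed by limma and 2 by DESeq2. Their part in the lower values of the macrophage genes was not tested.

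Other signals moved with the same groups. All 18 interferon-stimulated genes of a list added after the values were seen fell by more than 2-fold in both comparisons with WT RT. Among all genes, 5.15% fell this far with WT Cold set against WT RT, and 7.58% with GCN2 KO Cold. Since the list was added with the values known, its count is not a test of interferon-stimulated genes as a class. The 18 genes had median log2 fold changes of -2.48 for WT Cold and -2.66 for GCN2 KO Cold. Their summed level was 896, 1414 and 632 CPM in WT RT libraries A, B and C, 179, 191 and 222 CPM in WT Cold, and 158, 194 and 153 CPM in GCN2 KO Cold. The order of libraries was that of the summed level of the 35 genes in WT RT and GCN2 KO Cold but not in WT Cold, where B was lowest for the 35 genes and A for the interferon list. All 5 red cell genes rose in both comparisons, with medians of 1.64 and 2.31, and summed to 260.3 to 345 CPM in WT RT, 572 to 2279 CPM in WT Cold and 1084 to 2081 CPM in the libraries labelled GCN2 KO Cold. WT Cold B, with the highest red cell sum of its group, had the lowest sum of the 35 genes, whereas in GCN2 KO Cold library C had the lowest sum of both. The 10 muscle genes summed to 2153 to 2755 CPM in WT RT, 2157 to 3614 CPM in WT Cold and 525 to 1421 CPM in libraries labelled GCN2 KO Cold. In that group 9 of them fell relative to WT RT, and between the cold groups 1 fell by limma and 5 by DESeq2 (0.227% and 1.84% of all genes), with a median of -2.04. The 7 stromal genes, markers of fibroblasts, summed to 972 to 1137 CPM in WT RT, 762 to 852 CPM in WT Cold and 496 to 643 CPM in GCN2 KO Cold, so no group overlapped another. The 9 endothelial genes summed to 721 to 777 CPM in WT RT, 855 to 1021 CPM in WT Cold and 690 to 812 CPM in GCN2 KO Cold, and 3 rose and 0 fell in WT Cold while 2 rose and 3 fell in GCN2 KO Cold, both set against WT RT. Of the 7 stromal genes 3 fell in WT Cold and 4 fell in GCN2 KO Cold, both set against WT RT, and between the cold groups 0 passed by limma or edgeR, 1 by DESeq2 and 6 at an unadjusted p under 0.05 (7.49% of all genes), all lower. The 10 adipocyte genes summed to 19273 to 21066 CPM in WT RT, 24537 to 26494 CPM in WT Cold and 28500.2 to 28975.0 CPM in the libraries labelled GCN2 KO Cold. Gene by gene they were mixed relative to WT RT. In WT Cold 3 rose and 2 fell, with a median of 0.17, and in GCN2 KO Cold 5 rose and 1 fell, with a median of 0.27. The part of these signals in the falls of the macrophage genes was not tested.

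**Figure D5:**
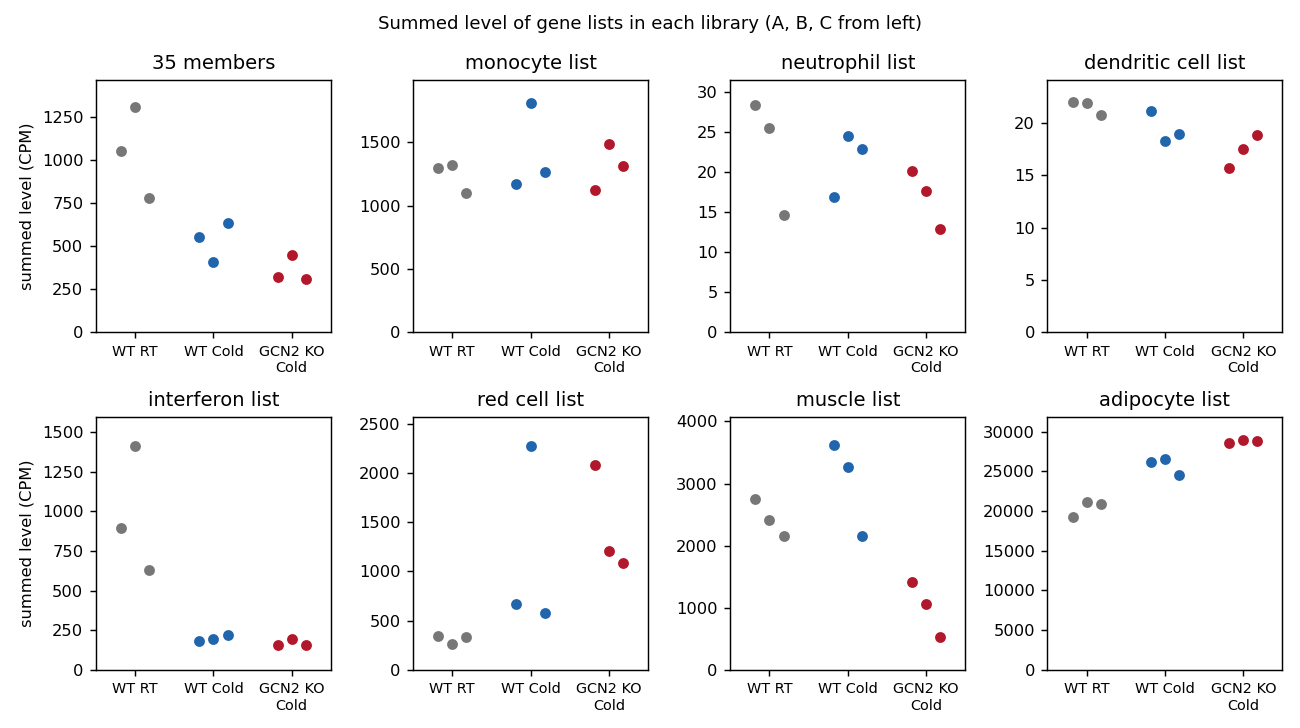
Summed level (CPM, y axis) of the 35 macrophage genes and of 7 other lists in each library, A, B and C of a group from left to right. The 35 genes lie between 779 and 1306 CPM in WT RT and between 307 and 636 CPM in the cold libraries. The interferon list, added after the values were seen, has the same order of WT RT libraries. The red cell and adipocyte lists are higher in all cold libraries.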

How the data were processed

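RNA from whole BAT was sequenced in 9 libraries, 3 in each of 3 groups. According to the study and the submitters' processing notes, poly(A) RNA was prepared with a NEBNext Ultra II kit, and paired-end reads were trimmed with Trimmomatic 0.36, aligned with STAR 2.5.2b to GRCm39, counted in exons by unique reads with featureCounts (Subread 1.5.2) and compared with DESeq2. The authors deposited 3 tables with a signal per gene and library, a read count over the library's size factor in that table, and this was checked to be a whole number of reads for 100% of 297306 values (tolerance 0.01). Their own fold changes and p-values were not used. A column was tied to a group by its library code, and 0 columns came from other samples.

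Fits used limma 3.58.1 (R 4.3.3) on log2(value + 1) with a trend of variance on level, and p-values were adjusted by Benjamini and Hochberg's method over all genes of a table, with a threshold of 0.05 and, where stated, an absolute log2 fold change over 1. edgeR 4.0.16 and DESeq2 1.42.0 on the recovered reads, other pseudocounts, filters, scaling and left-out libraries were alternatives. Levels are CPM over the 16608 genes with a value for every library in at least 1 of its tables. The scripts were tested on simulated data. All 35 genes are named, with up to 4 examples from each other list, those with the largest changes among genes that passed, and a few named after their values were seen. Some items are not reported here. The genes and lists were chosen with earlier results of these data known. The labels call the libraries of a group biological replicates. Coordinates of counted genes are not given, since the reference at hand is of another build.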

Additional observations from a re-analysis of the deposited data

How the results depend on the processing

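No paired analysis was possible because the columns carry no replicate number. For WT Cold vs WT RT, the number of the 35 genes called was 23 (27.7% of all genes were called), or 0 with the Bonferroni adjustment (also 0 with a change over 2-fold, 0.773% of all genes called), 11 without WT RT B and WT Cold B together (6.8%), and 17 to 27 with each library left out (17.4% to 34%), 14 to 19 of them over 2-fold. The median log2 fold change was -0.70 without both B libraries, and -1.06 to -0.80 with single libraries left out. For GCN2 KO Cold vs WT RT, Bonferroni left 1 gene, the same number over 2-fold (1.22% of all genes called, against 34.2%), and single libraries left out gave 27 to 29 (25.5% to 31.8%), with 21 to 28 over 2-fold. Between the cold groups the count was 0 under every alternative run.

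Directions that turned were of genes not called. In WT Cold vs WT RT these were Itgam (0.14) and Mrc1 (0.026) without both B libraries, and Vsig4 with edgeR (0.42), DESeq2 (0.43) and a pseudocount of 5 (0.0033). With single libraries left out, Mrc1 ranged from -0.65 to 0.016, Clec10a from -0.25 to 0.72 and Vsig4 from -0.91 to 0.58. Between the cold groups, scaling to library totals gave Fcgr1 -0.091 and Tlr2 -0.042, and leaving out libraries gave Aif1 -0.050 to 0.56, Fcgr1 -0.26 to 0.54, Tlr2 -0.074 to 0.20, Clec7a -0.56 to 0.080, Spi1 -0.22 to 0.19, Ptprc -0.28 to 0.12, Vsig4 -0.14 to 1.34 and Siglec1 -0.80 to 0.13. In GCN2 KO Cold vs WT RT, Cd163 ranged from -0.00051 to 0.51, Cd14 from -0.17 to 0.068 and Lyve1 from -0.20 to 0.19. The cause was not tested. Counting error was not set against the spread between libraries, and the lowest read counts were those of Vsig4, with 7 in its lowest library.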
